A study of Mus musculus with 9 samples.

Results

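Matrix metalloproteinases and their tissue inhibitors, the TIMPs, were followed in the kidneys of mice with hyperuricemic nephropathy (HN). The 10 genes were taken by name: the metalloproteinases Mmp2, Mmp3, Mmp7, Mmp9, Mmp12 and Mmp14, and the inhibitors Timp1, Timp2, Timp3 and Timp4. They are 10 of the 55385 genes of the deposited table, and all 10 were among the 21392 genes with enough counts to be tested. RNA-seq of kidney gave 1 library per mouse and 3 libraries per group. All were C57BL/6 mice by the labels, and the study's methods give C57BL/6J males of 8 to 10 weeks. Control mice (numbered 2, 4 and 5) were untreated. HN mice (4, 8 and 12) received feed with adenine at 0.16 g/kg and potassium oxonate at 2.4 g/kg, given on alternate days over 4 weeks. PEC mice (1, 2 and 3) had the same induction and were given the flavonoid pectolinarigenin by mouth each day over those weeks, at 25 mg/kg by the methods, since the labels give no dose. Each group of the study had 8 mice, and how the 3 sequenced ones were picked is not given in the sources used here.

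Metalloproteinases are zinc enzymes that cut collagens, laminins, elastin and many surface and secreted proteins, and most are made as inactive proenzymes that another protease has to open. TIMPs bind the active enzymes and block them, and TIMP3, which is held in the matrix, also blocks several ADAM and ADAMTS proteases. In scarring kidneys both sides of the system are known to change, and transcript levels say nothing of enzyme activity.

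Libraries held 57714111 to 81069646 counts (median 74397038), and counting error therefore mattered only for genes with few reads. Levels are given as FPKM, the length-scaled and depth-scaled values that the authors deposited, which can be compared between genes. Differences were tested on the counts with edgeR after TMM scaling. A call needed a fold change of 1.5 or more together with a Benjamini-Hochberg adjusted p, over all genes tested, of 0.05 or less. Differences are log2 fold changes ± SE. The scaling mattered for the background. With TMM the median log2 fold change of all tested genes was 0.00 for HN against Control, -0.02 for PEC against HN and 0.04 for PEC against Control. With library totals alone, the scale on which FPKM stands, these medians were 0.56, -0.21 and 0.40, and the genes called higher and lower went from 3777 and 3154 to 7708 and 1286 for HN against Control, from 2875 and 3266 to 1951 and 4631 for PEC against HN, and from 4053 and 3731 to 6415 and 1960 for PEC against Control. FPKM therefore shows a rise in HN somewhat larger, and a fall somewhat smaller, than the tested fold change.

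The libraries also differed in lung and fat cell transcripts and in ribosomal and mitochondrial counts. Lung epithelial transcripts, which a kidney should lack, summed to 55, 49.5 and 18 FPKM in PEC mice 1, 2 and 3, against 0 in each Control library and 0, 0.02 and 0.1 in HN mice 4, 8 and 12. Scgb1a1 was the most abundant of these 5 markers. Counts on ribosomal RNA loci made up 0.296%, 1.72% and 0.302% of the PEC libraries and at most 0.00419% of the others. Mitochondrial counts made up 12.9% to 16.3% in Control, 6.01% to 6.34% in HN and 10.3% to 13.6% in PEC libraries. Fat cell markers summed to 438 FPKM in PEC mouse 3, 50.1 in HN mouse 12 and 16.3 in Control mouse 2, and to at most 1.42 in the other libraries, with Cfd the most abundant. Of the 5 tested, 0 were called in any comparison by edgeR, where 13.4% to 18.9% of all tested genes were called in each direction. The submitters' extraction notes mention an adipose type, although each sample is labelled kidney. The summed markers of proximal tubule, endothelium, collecting duct and urothelium, and podocytes were above 0 FPKM in every library, although single markers were not (Upk2 had 0 counts in PEC mouse 2). Of the 66 markers of the 10 cell type lists, those of lung, fat and neutrophils included, 0 had fewer than 3 counts in every library. Reads in 1 library are enough for that. The part of these features in the results below was not tested.

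In HN kidneys 8 of the 10 genes were called higher than in Control (17.7% of all tested genes were) and 1 of the 10, Timp3, was called lower (14.7% of all tested genes were). In PEC kidneys 6 of the 10 were called lower than in HN (background 15.3%) and 0 of the 10 higher (background 13.4%). Against Control, 8 of the 10 were still called higher in PEC kidneys (background 18.9%) and 1 of the 10 lower (background 17.4%). Both counts of 8 include Mmp7, which had next to no counts in Control and passed the filter on low counts through the other groups, so that its calls against Control were bound to follow, and 7 of the other 9 genes were called higher each time. These comparisons share mice: the HN mice serve in the first and second, and the PEC and Control mice each serve in 2 of the 3. The count of 0 came from edgeR with adjusted p. At an unadjusted p it was 1, and with DESeq2 it was 1, both times Timp4, and with an offset for length and GC content it was 1, Timp3. Limma on FPKM gave 0, with Timp4 below its filter and so not tested.

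**Figure D1:**
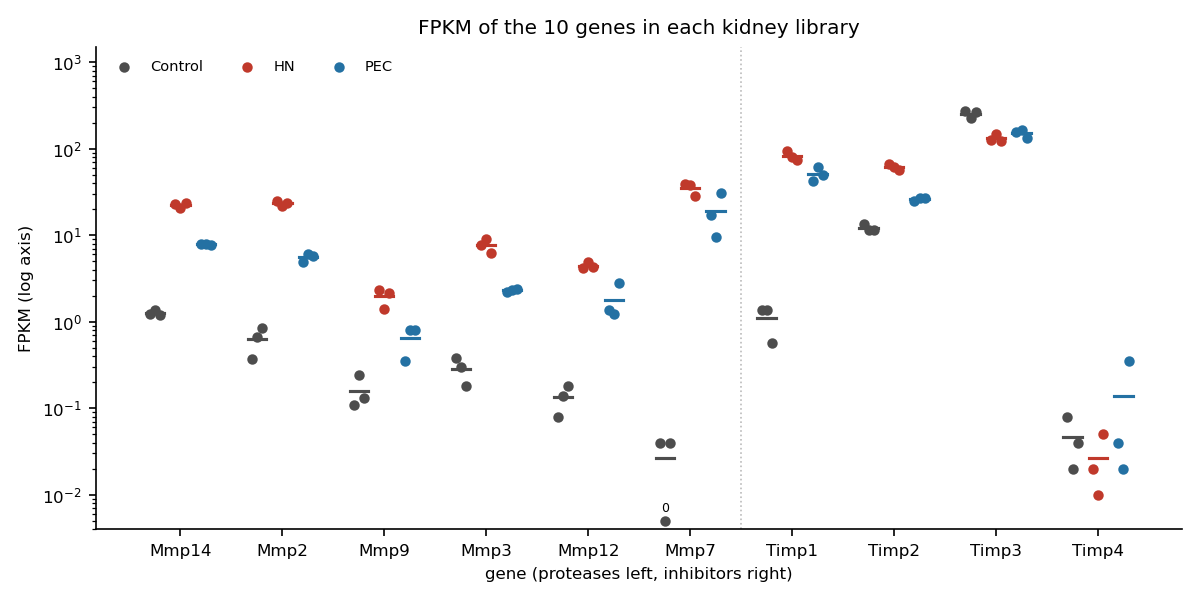
FPKM of the 10 genes on a log axis, with 1 point per mouse and a bar at the group mean for Control, HN and PEC; the point marked 0 is Mmp7 in Control mouse 4 and is drawn at the bottom of the axis. For the 6 proteases, Timp1 and Timp2 the Control points lie below all others, for Timp3 they lie above, and for Timp4 the groups overlap.

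Mmp14 encodes a membrane-anchored collagenase that also opens pro-MMP2 at the cell surface. Mmp14 (ENSMUSG00000000957, chromosome 14, 54431612 to 54441265, GRCm38) stood at 1.24, 1.37 and 1.18 FPKM in Control mice 2, 4 and 5, at 23.2, 20.8 and 23.8 in HN mice 4, 8 and 12, and at 7.98, 7.94 and 7.76 in PEC mice 1, 2 and 3. The 3 groups formed 3 separate steps, with PEC between Control and HN and very little spread among the PEC mice. The log2 fold change was 3.62 ± 0.09 for HN against Control (edgeR adjusted p = 2.43e-07), -1.30 ± 0.08 for PEC against HN (adjusted p = 2.45e-05) and 2.32 ± 0.09 for PEC against Control (adjusted p = 1.44e-06). Mmp2 encodes gelatinase A, the main protease that Mmp14 and Timp2 together activate. Mmp2 (ENSMUSG00000031740, chromosome 8, 92827291 to 92853420) stood at 0.37, 0.67 and 0.84 FPKM for Control, 25, 22 and 23.8 for HN and 4.95, 6.03 and 5.71 for PEC mice. It followed the same steps as Mmp14 from a lower start, and in HN kidneys the levels of Mmp2 and Mmp14 overlapped (23.6 ± 1.52 and 22.6 ± 1.60 FPKM, SD, n = 3). Its fold changes were 4.69 ± 0.28 (edgeR adjusted p = 4.33e-06), -1.87 ± 0.25 (adjusted p = 0.000469) and 2.82 ± 0.26 (adjusted p = 4.49e-05) in the same order of comparisons, and the fall in PEC was the largest among the 10 genes.

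Mmp9, gelatinase B, is stored by neutrophils and made by macrophages and tubule cells. Mmp9 (ENSMUSG00000017737, chromosome 2, 164940780 to 164955850) was low throughout, at 0.11, 0.24 and 0.13 FPKM for Control, 2.35, 1.41 and 2.17 for HN and 0.35, 0.80 and 0.80 for PEC mice. The groups did not overlap, although PEC mouse 1 came close to Control mouse 4. The difference was 3.10 ± 0.43 for HN against Control (edgeR adjusted p = 0.000380), -1.39 ± 0.40 for PEC against HN (adjusted p = 0.0215) and 1.71 ± 0.41 for PEC against Control (adjusted p = 0.00797). The call of PEC against HN was lost without HN mouse 4 (-1.22, adjusted p = 0.0732), HN mouse 12 (-1.34, adjusted p = 0.0573) or PEC mouse 1 (-1.09, adjusted p = 0.0541), and over all alternatives its adjusted p ranged from 0.00204 to 0.0732. The call of PEC against Control was lost with limma on log2(FPKM + 1), where the fold change was 0.50 (adjusted p = 0.0245, the range over all alternatives being 0.000138 to 0.0316). Of the 8 neutrophil markers 3 had enough counts for a test, and 0 of the 3 were called in any comparison by edgeR (background 13.4% to 18.9% in each direction). With 3 genes this count cannot be told from the background. For HN against Control the fold changes were 0.91 ± 0.49 (S100a8), 0.92 ± 0.61 (S100a9) and -0.52 ± 1.13 (Retnlg). The sum of the 8 markers was 6.48, 12.3 and 4.04 FPKM for Control, 27.4, 13.7 and 16 for HN and 6.79, 7.77 and 24.6 for PEC mice, mostly from S100a9.

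The genes of Mmp12, Mmp3 and Mmp7 lie in 1 cluster of metalloproteinase genes on chromosome 9, which spans 427072 bases and holds 10 genes in the table. Of the 10 genes measured here, 8 had RefSeq promoter windows (GRCm38.p6; 250 bases before to 50 after a start, 10 windows in all). Mmp2 and Mmp9 had none. The letters TGANTCA, the core of AP-1 motifs, were searched on both strands together with the TATA box TATAAA, the GC box GGGCGG and the STAT pattern TTCNNNGAA, motifs that were picked after the sequences had been read and that do not overlap in the stretches printed. TGANTCA occurred in 3 of the 10 windows, a window each of Mmp12, Mmp3 and Mmp7, and in 7.81% of all 32851 windows. Since the motifs were picked from these sequences, the shares of the 4 motifs here cannot be set against those of all windows. Windows of the other genes of the cluster were not looked at one by one. The 100 bases before those 3 starts are printed on the plus strand, 5′ to 3′, with the TGAGTCA match in capitals. It begins 44 bases before the second listed start of Mmp12 (chr9:7347274-7347373, within the gene but in 0 annotated exons), 46 bases before that of Mmp3 (chr9:7445722-7445821, in 0 annotated genes) and 63 bases before the first listed start of Mmp7 (chr9:7691990-7692089, inside the antisense gene AV064505, in 0 exons).
Mmp12: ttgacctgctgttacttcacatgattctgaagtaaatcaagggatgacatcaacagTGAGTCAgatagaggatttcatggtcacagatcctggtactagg
Mmp3: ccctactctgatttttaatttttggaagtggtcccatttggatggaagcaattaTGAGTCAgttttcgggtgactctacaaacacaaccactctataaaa
Mmp7: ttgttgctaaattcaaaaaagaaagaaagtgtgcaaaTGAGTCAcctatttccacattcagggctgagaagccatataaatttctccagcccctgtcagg
The same 3 windows, and 0 of the other 7, also held TATAAA, which 13.6% of all windows hold. GGGCGG occurred in the windows of Timp1, Timp2, Timp3 and Mmp14 (35.7% of all windows) and TTCNNNGAA in 0 of the 10 (8.3% of all windows). A match is a run of letters and not a measured binding site, and the other listed windows of Mmp12 and Mmp7 held 0 matches to any of the 4 patterns.

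Mmp3, stromelysin 1, cuts a wide range of matrix proteins and opens other proenzymes. Mmp3 (ENSMUSG00000043613, chromosome 9, 7445822 to 7455975), with its AP-1 letters at 46 bases, stood at 0.38, 0.30 and 0.18 FPKM for Control, 7.61, 8.92 and 6.29 for HN and 2.21, 2.34 and 2.38 for PEC mice. As for Mmp14, the groups were apart and the PEC mice nearly alike. The log2 fold change was 4.19 ± 0.28 for HN against Control (edgeR adjusted p = 6.70e-06), -1.5 ± 0.24 for PEC against HN (adjusted p = 0.00142) and 2.68 ± 0.26 for PEC against Control (adjusted p = 5.87e-05). Mmp12 is the elastase of macrophages. Mmp12 (ENSMUSG00000049723, chromosome 9, 7344381 to 7369499) stood at 0.08, 0.14 and 0.18 FPKM for Control, 4.17, 4.92 and 4.26 for HN and 1.35, 1.23 and 2.81 for PEC mice. PEC mouse 3 stood well above the other PEC mice and still below every HN mouse. Its fold changes were 4.51 ± 0.41 (edgeR adjusted p = 3.03e-05), -1.09 ± 0.35 (adjusted p = 0.0345) and 3.42 ± 0.39 (adjusted p = 0.000129). The call of PEC against HN was lost without any 1 of HN mouse 4 (-1.12, adjusted p = 0.0739), HN mouse 8 (-1.03, adjusted p = 0.0937), HN mouse 12 (-1.14, adjusted p = 0.0651), PEC mouse 1 (-0.93, adjusted p = 0.106) or PEC mouse 2 (-0.88, adjusted p = 0.0998), and with an offset for length and GC content (-0.49, adjusted p = 0.282). Its adjusted p over all alternatives ranged from 0.00209 to 0.282, and it was -1.54 (adjusted p = 0.00397) without PEC mouse 3.

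Macrophage markers moved in the same direction as Mmp12. All 8 of 8 were called higher in HN than in Control (background 17.7%) and 7 of 8 were called lower in PEC than in HN (background 15.3%), with Lyz2 the most abundant. Their sum was 49.7, 56.2 and 48 FPKM for Control, 1144, 1198 and 1037 for HN and 400, 422 and 549 for PEC mice, so that PEC mouse 3 was the highest PEC mouse here as well. In bulk kidney RNA, fewer cells of a type and less RNA per cell cannot be told apart, and the part of macrophages in the Mmp12 level was not tested.

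Mmp7, matrilysin, is made by epithelial cells and is nearly silent in healthy kidney tubules. Mmp7 (ENSMUSG00000018623, chromosome 9, 7692090 to 7699585), with its AP-1 letters at 63 bases, had 4, 0 and 4 counts in the Control libraries, 3431, 3646 and 2493 in HN mice and 1550, 741 and 2126 in PEC mice, which is 0.04, 0.00 and 0.04 FPKM, then 39.1, 37.9 and 28.1, then 17.2, 9.54 and 30.4. It passed the filter on low counts through the HN and PEC libraries alone, and so had to differ from Control. It went from the lowest level of the 10 genes in Control to the highest level of the 6 proteases in HN. The summed counts were 809 times the Control rate in HN (95% interval by the exact binomial method 410 to 1874) and 498 times in PEC (253 to 1154), intervals that cover counting error only. The fitted log2 fold changes, 9.61 ± 0.68 (edgeR adjusted p = 8.87e-06) and 8.94 ± 0.67 (adjusted p = 1.72e-05), depend on the prior count. Between PEC and HN the mice overlapped, with PEC mouse 3 above HN mouse 12, and Mmp7 was not called (-0.67 ± 0.41, edgeR adjusted p = 0.227). Without PEC mouse 3 it was called lower (-1.15, adjusted p = 0.0353), as it was over all mice with limma on log2(FPKM + 1) (-0.97, adjusted p = 0.0352) and on log2(FPKM + 0.1) (-1.02, adjusted p = 0.0457), and over all alternatives its adjusted p ranged from 0.0352 to 0.475.

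**Figure D2:**
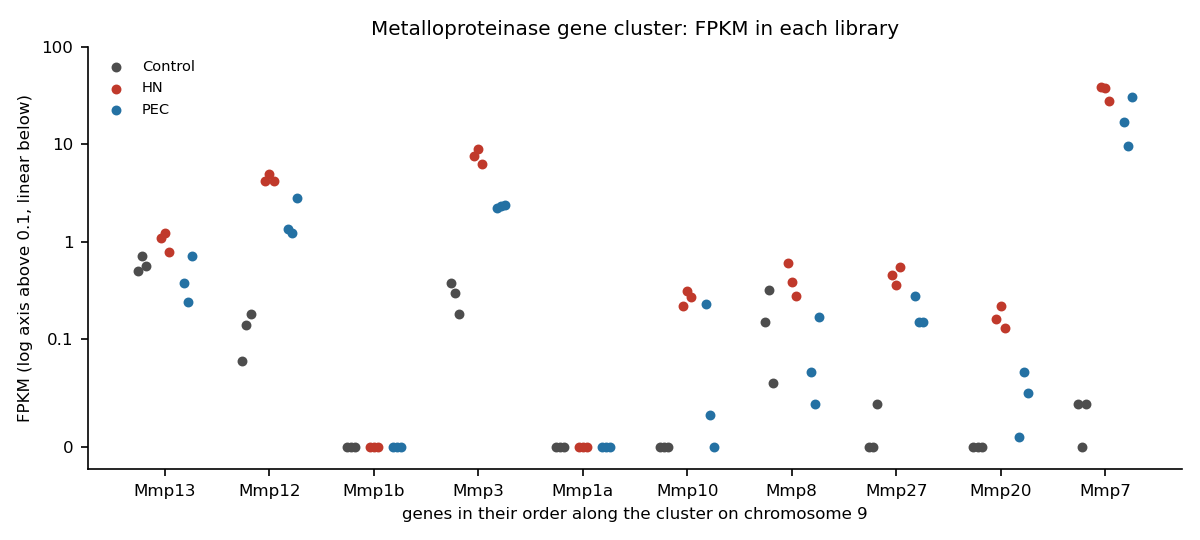
FPKM of the 10 metalloproteinase genes of the chromosome 9 cluster in their order along the chromosome, with 1 point per mouse for Control, HN and PEC, on an axis that is logarithmic above 0.1 and linear below. Mmp12, Mmp3 and Mmp7 reach the highest levels in HN, while Mmp1b and Mmp1a are at 0 in all 9 libraries.

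Within the cluster the neighbours were not all called in HN against Control. In order along the chromosome the genes were Mmp13, Mmp12, Mmp1b, Mmp3, Mmp1a, Mmp10, Mmp8, Mmp27, Mmp20 and Mmp7, of which 8 had enough counts for a test. Mmp13, a collagenase at one end, stood at 0.50, 0.72 and 0.57 FPKM in Control and 1.09, 1.22 and 0.78 in HN mice, and was not called (0.27, edgeR adjusted p = 0.627). Mmp8, the neutrophil collagenase, was not called either (0.75, edgeR adjusted p = 0.418). Mmp10 and Mmp20 had 0 counts in every Control library and 32, 48 and 40 and then 42, 66 and 36 counts in HN mice. Against a floor of 3 counts over the Control group, Mmp10 was at least 27-fold and Mmp20 at least 32.5-fold higher in HN. Mmp27 had 0, 0 and 9 counts in Control and 85, 73 and 103 in HN mice (4.25, edgeR adjusted p = 0.00989). These 3 genes thus rose from next to nothing to at most 0.55 FPKM, far below Mmp12, Mmp3 and Mmp7. Mmp1a and Mmp1b had 0 counts in all 9 libraries. Between PEC and HN the fold changes of all 8 tested genes were below 0, from -1.91 (Mmp8) to -0.67 (Mmp7), where the median of all tested genes was -0.02. Only Mmp12 and Mmp3 were called lower (background 15.3%). Mmp7, Mmp10, Mmp20 and Mmp27 had at most 9 counts in each Control library and passed the filter on low counts through HN and PEC libraries. The signs of the 8 therefore cannot be set against the background.

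On the inhibitor side, Timp1 encodes a secreted inhibitor that fibroblasts and injured epithelium make in large amounts. Timp1 (ENSMUSG00000001131, chromosome X, 20870166 to 20874735) stood at 1.35, 1.36 and 0.57 FPKM in Control mice 2, 4 and 5, at 93.0, 79.9 and 73.5 in HN mice 4, 8 and 12, and at 42.2, 61.5 and 49.1 in PEC mice 1, 2 and 3. All 3 PEC mice lay below all 3 HN mice and far above Control. The difference was 5.69 ± 0.32 for HN against Control (edgeR adjusted p = 3.20e-06) and 5.21 ± 0.31 for PEC against Control (adjusted p = 6.98e-06). Between PEC and HN it was -0.48 ± 0.25 and was not called (edgeR adjusted p = 0.171). With an offset for length and GC content it was called lower (-0.94, adjusted p = 0.0210), as with limma on log2(FPKM + 1) (-0.69, adjusted p = 0.0150), and over all alternatives its adjusted p ranged from 0.0150 to 0.394. Timp1 lies inside Syn1 on the opposite strand, where Syn1 had at most 0.38 FPKM, and since the sources do not say whether counting used the strand, reads of such pairs cannot be told apart.

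Timp2, a secreted inhibitor that also forms the bridge by which Mmp14 activates pro-MMP2, was present in Control and rose with its partners. Timp2 (ENSMUSG00000017466, chromosome 11, 118301069 to 118355740, minus strand) stood at 13.5, 11.5 and 11.6 FPKM for Control, 65.9, 61.0 and 57.2 for HN and 25.1, 27.1 and 27.2 for PEC mice. The groups were apart, with PEC nearer to Control than to HN. The log2 fold change was 1.80 ± 0.10 for HN against Control (edgeR adjusted p = 3.34e-06), -1.0 ± 0.10 for PEC against HN (adjusted p = 0.000123) and 0.80 ± 0.10 for PEC against Control (adjusted p = 0.000209). The last of these was no longer called with the offset for length and GC content (0.46, adjusted p = 0.00637, the range over all alternatives being 1.35e-11 to 0.00637) or at a fold change of at least 2, where the call of PEC against HN was lost too.

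Timp3, the matrix-bound inhibitor, was the most abundant of the 10 genes in all 3 groups and the one that fell in HN. Timp3 (ENSMUSG00000020044, chromosome 10, 86300372 to 86349506) stood at 273, 226 and 265 FPKM for Control, 128, 147 and 124 for HN and 155, 164 and 134 for PEC mice. Every Control mouse lay above every other mouse, while PEC mouse 3 lay below HN mouse 8 on this scale. The difference was -1.47 ± 0.13 for HN against Control (edgeR adjusted p = 2.45e-05) and -1.07 ± 0.13 for PEC against Control (adjusted p = 0.000152). Between PEC and HN it was 0.40 ± 0.12 (edgeR adjusted p = 0.0313), below the fold change of 1.5, and it was called higher only with the offset for length and GC content (0.69, adjusted p = 0.00334, the range over all alternatives being 0.00334 to 0.211). Most proximal tubule markers moved in the same direction as Timp3, with 7 of 8 called lower in HN than in Control (background 14.7%) and 7 of 8 called higher in PEC than in HN (background 13.4%). The exception, Slc5a12, was not called and stood lower in PEC than in HN (-1.08, edgeR adjusted p = 0.0778), at 30.3, 21.9 and 23.5 FPKM for HN and 6.14, 19.4 and 5.29 for PEC mice. The sum of all 8 markers, nearly all of it Kap, was 26160, 25501 and 39065 FPKM for Control, 3328, 5717 and 4526 for HN and 13221, 18737 and 12302 for PEC mice. The part of these cells in the Timp3 level was not tested. Timp3 lies inside Syn3 on the opposite strand, which had at most 0.9 FPKM.

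Timp4 was near the limit of detection. Timp4 (ENSMUSG00000030317, chromosome 6, 115241892 to 115252205, minus strand) had 38, 12 and 21 counts for Control, 12, 4 and 24 for HN and 22, 10 and 136 for PEC mice, or 0.01 to 0.35 FPKM. PEC mouse 3 stood alone, and within Control and HN the highest counts were those of Control mouse 2 and HN mouse 12, the same 3 mice in which fat cell markers were high (438, 16.3 and 50.1 FPKM), a relation that was not tested. It was not called in any comparison (edgeR adjusted p = 0.346 for HN against Control, 0.0885 for PEC against HN and 0.364 for PEC against Control). The log2 fold change of PEC against HN was 2.57 ± 1.08. It was 0.57 without PEC mouse 3 (adjusted p = 0.649), while without PEC mouse 2 it was called higher (3.07, adjusted p = 0.0453), and over all alternatives its adjusted p ranged from 0.0307 to 0.649. Against Control the sign turned from 1.21 to -0.80 without PEC mouse 3 (adjusted p = 0.504, the range being 0.19 to 0.589). Timp4 lies inside Syn2 on the opposite strand, and Syn2 had 0.25 to 0.81 FPKM, more than Timp4 itself.

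**Figure D3:**
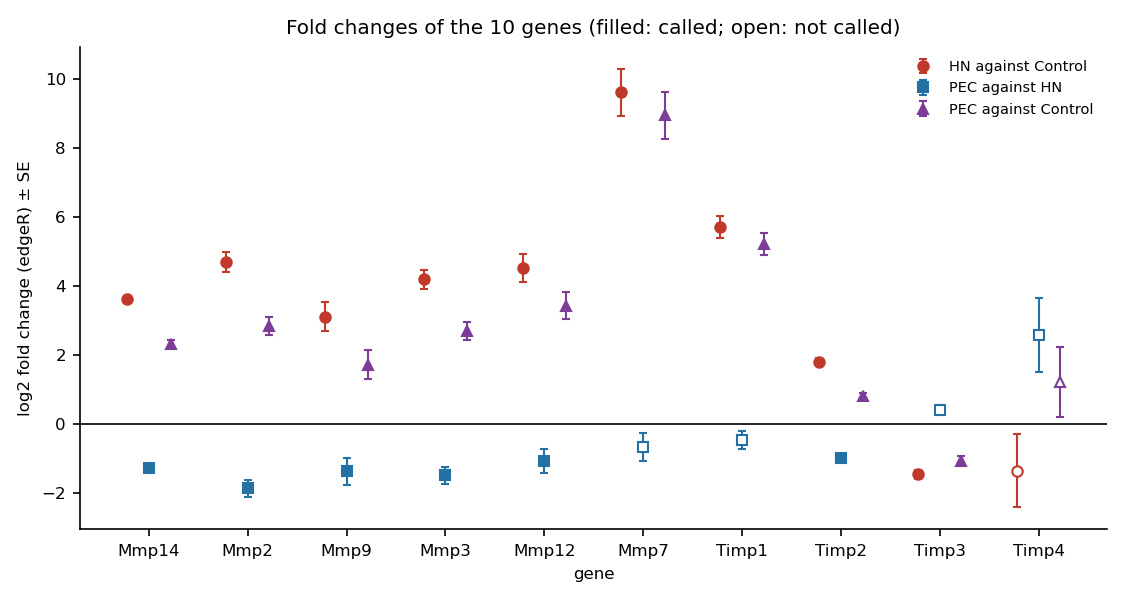
Log2 fold change from edgeR (bars, ± SE) of the 10 genes in the comparisons of HN with Control, of PEC with HN and of PEC with Control; filled symbols were called (fold change of 1.5 or more, adjusted p of 0.05 or less) and open ones were not. For 8 genes HN against Control and PEC against Control are above 0, and for Timp3 both are below.

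Ranked by FPKM, the order of the genes changed between groups. In Control it ran Timp3 (255 ± 25 FPKM, SD, n = 3), Timp2 (12.2 ± 1.13), Mmp14 (1.26 ± 0.0971), Timp1 (1.09 ± 0.453), Mmp2, Mmp3, Mmp9, Mmp12, Timp4 and Mmp7. From Mmp14 downward each gene overlapped the next. In HN it ran Timp3 (133 ± 12.5), Timp1 (82.1 ± 9.94), Timp2 (61.4 ± 4.36), Mmp7 (35.0 ± 6.01), Mmp2, Mmp14, Mmp3, Mmp12, Mmp9 and Timp4, with an overlap between neighbours only for Mmp2 and Mmp14. In PEC it ran Timp3 (151 ± 15.5), Timp1 (50.9 ± 9.81), Timp2 (26.5 ± 1.20), Mmp7 (19.0 ± 10.5), Mmp14, Mmp2, Mmp3, Mmp12, Mmp9 and Timp4, with overlaps of Timp2 with Mmp7, Mmp3 with Mmp12 and Mmp9 with Timp4.

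Summed over the 6 proteases, FPKM was 2.22, 2.72 and 2.55 in Control mice 2, 4 and 5, 101, 95.9 and 88.5 in HN mice 4, 8 and 12, and 34.0, 27.9 and 49.8 in PEC mice 1, 2 and 3. The groups did not overlap, and PEC mouse 3 was the highest of its group, with Mmp7 making up most of its sum. Each pair of groups gave p = 0.10 in an exact two-sided permutation test, the smallest that 3 mice against 3 allow. The sum of the 4 TIMPs behaved otherwise, at 288, 239 and 277 FPKM for Control, 287, 288 and 254 for HN and 222, 253 and 210 for PEC mice. Control and HN overlapped throughout (ratio of means 1.03, exact permutation p = 0.60), and PEC lay somewhat lower (0.826 of HN, exact permutation p = 0.10; 0.852 of Control, exact permutation p = 0.20). The direction of this sum depended on the scaling. With FPKM divided by the TMM factor of each library, an alternative chosen after seeing the data, it was 351, 287 and 356 for Control, 250, 239 and 208 for HN and 212, 247 and 201 for PEC mice, so that HN stood at 0.701 of Control. Rescaled to TPM, HN stood at 1.36 of Control.

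Within the TIMP sum the makeup changed whatever the scaling, since shares within a library do not depend on it. Timp3 held 94.8%, 94.6% and 95.6% of it for Control, 44.6%, 51.1% and 48.6% for HN and 69.7%, 64.9% and 63.6% for PEC mice. Timp1 went from 0.415% of the sum in Control (mean of 3 mice) to 29.7% in HN and 22.2% in PEC, and Timp2 from 4.56% to 22.2% and 11.7%. The ratio of Timp1 to Timp3 was 0.005, 0.006 and 0.0022 for Control, 0.728, 0.543 and 0.594 for HN and 0.272, 0.375 and 0.367 for PEC mice. Every pair of groups was apart (exact permutation p = 0.10 for each, the smallest possible), and the mean ratio in PEC was 0.544 of that in HN. TIMPs held 99.2%, 98.9% and 99.1% of the FPKM of all 10 genes for Control, 73.9%, 75% and 74.2% for HN and 86.7%, 90.1% and 80.8% for PEC mice (exact permutation p = 0.10 for each pair of groups). The HN mice were thus lowest in this share, and PEC mouse 3 was nearest to them.

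**Figure D4:**
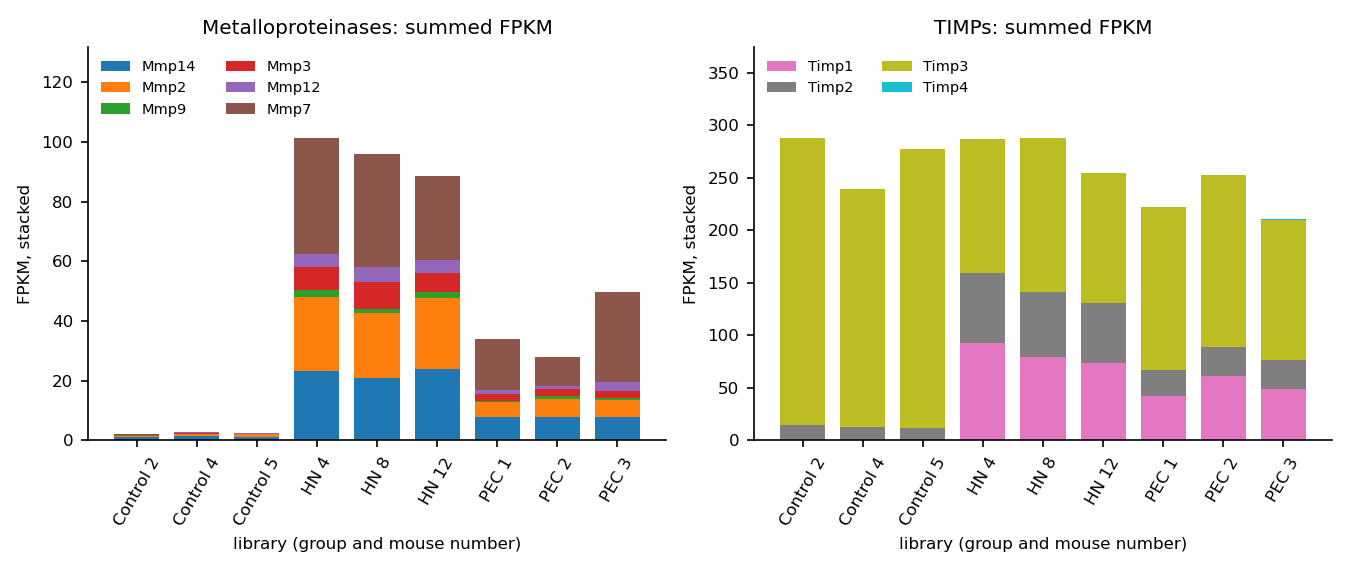
Stacked FPKM of the 6 metalloproteinases (left) and the 4 TIMPs (right) in each of the 9 libraries, on axes that start at 0. The protease stack is 2.22 to 2.72 in Control and 88.5 to 101 in HN, while the TIMP stack has nearly the same height in both with Timp3 replaced in part by Timp1 and Timp2.

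Markers of stromal and injured cells were higher in HN. All 8 of 8 fibroblast and myofibroblast markers were called higher in HN than in Control (background 17.7%) and 5 of 8 lower in PEC than in HN (background 15.3%), with a sum of 67.1, 65.1 and 56.9 FPKM for Control, 303, 294 and 271 for HN and 173, 200 and 166 for PEC mice. Col1a1 had the most counts of this list, while Tagln stood above it in FPKM in every Control and PEC mouse. All 6 of 6 injured tubule markers were called higher in HN and 2 of 6 lower in PEC than in HN (the same backgrounds), with a sum of 37.4, 37 and 14.2 FPKM, then 636, 641 and 630, then 428, 448 and 510. Havcr1 had the most counts of this list. In Control mice Krt18 led instead (31.3, 31.4 and 11.3 FPKM), and in PEC mouse 3 Lcn2 did (210 FPKM, against 129 for Havcr1). For injured tubule markers the PEC mice were thus closer to HN than to Control. Mean sums of the other lists were 48.2, 59.9 and 54.7 FPKM for endothelium (Control, HN and PEC), 282, 202 and 241 for collecting duct and urothelium (led by Aqp2) and 56.4, 78.3 and 75.7 for podocytes (led by Podxl). Pecam1 had the most counts of the endothelium list. In FPKM Cdh5 stood above Pecam1 in every HN mouse, and Emcn did so in every PEC mouse. Within the collecting duct and urothelium list, the urothelial genes were high in PEC mouse 3, as seen after looking at the values: Upk1b stood at 0.44, 0.19 and 8.01 FPKM in PEC mice 1, 2 and 3 and at most 1.08 in the other groups, Upk2 at 0.28, 0.00 and 5.19 (at most 1.10), Upk3a at 1.05, 0.16 and 9.41 (at most 3.16) and Krt5 at 0.96, 0.10 and 6.02 (at most 2.33). PEC mouse 3 is also the mouse with the highest Mmp7, Mmp12 and protease sum of its group. The part of these cells in the levels of the 10 genes was not tested.

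Other metalloproteinase genes, 17 in all, had 14 members with enough counts. In HN 9 of the 14 were called higher than in Control and 0 lower (background 17.7% and 14.7%), with a median log2 fold change of 1.63 against 0.00 over all tested genes, a median that was also 1.63 with Mmp10 and Mmp20 at their bounds. Of the 9, Mmp10, Mmp20, Mmp24 and Mmp27 had at most 9 counts in each Control library and passed the filter on low counts through libraries of the other groups, and so, like Mmp7, had to differ from Control. The largest were Mmp20, Mmp10, Mmp27 and Mmp24, a membrane-type enzyme known from neurons (6.28 ± 1.05, edgeR adjusted p = 0.00122), each of them at no more than 0.55 FPKM in any library. The other genes called were Mmp25 (2.87), Mmp11 (2.01), Mmp23 (1.66), Mmp17 (0.99) and Mmp15 (0.61). Since the count of 9 and the median of 1.63 include the 4 low genes, they cannot be set against the background. In PEC 2 of the 14 were called lower than in HN and 0 higher (median -0.98 against -0.02), a share no larger than the 15.3% of all tested genes, namely Mmp17 (-0.91, edgeR adjusted p = 0.00413) and Mmp15 (-0.82, edgeR adjusted p = 0.0160), both membrane-bound. Against Control 7 of the 14 were called higher in PEC and 0 lower (background 18.9% and 17.4%; median 0.92 against 0.04), the same 4 low genes among the 7. Beside those 4, Mmp11 (1.6), Mmp23 (1.5) and Mmp25 (1.9) were called. The genes not called ran from -1.16 (Mmp8) to 0.32 (Mmp19). This count and median include the 4 low genes as well, and so cannot be set against the background either.

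Among 13 genes of activation, surface partners and clearance, 8 were called higher in HN and 0 lower (median 0.90, background 17.7% and 14.7%), 5 lower in PEC than in HN and 0 higher (median -0.57, background 15.3% and 13.4%), and 5 higher in PEC than in Control and 0 lower (median 0.13, background 18.9% and 17.4%). Lcn2, whose product binds and shields MMP9, stood at 1.37, 2.01 and 0.66 FPKM for Control, 176, 140 and 136 for HN and 101, 66.9 and 210 for PEC mice. PEC mouse 3 was again the highest, here above every HN mouse, and Lcn2 was called in HN (6.28, edgeR adjusted p = 2.69e-05) but not between PEC and HN (-0.05, edgeR adjusted p = 0.942). Cd44, a hyaluronan receptor that docks MMP9 on cells, was called higher in HN (4.96, edgeR adjusted p = 1.09e-06) and fell short of the fold change between PEC and HN (-0.57, edgeR adjusted p = 0.0171). The thrombospondins Thbs2 and Thbs1, which carry MMP2 to its uptake receptor Lrp1, were higher in HN by 3.21 and 2.34 and lower in PEC than in HN (-1.55 and -1.81), with edgeR adjusted p between 1.26e-06 and 0.000133.

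The plasminogen activator system, whose product plasmin opens several proenzymes, had 6 of the 7 genes reported here tested. In HN 2 were called higher and 1 lower (median 0.20, background 17.7% and 14.7%), in PEC against HN 1 higher and 1 lower (median 0.06, background 13.4% and 15.3%), and in PEC against Control 2 higher and 1 lower (median 0.27, background 18.9% and 17.4%). With 6 genes, 1 call is about the share of all tested genes, and the list as a whole did not stand out in PEC against HN. Serpine2, an inhibitor of several serine proteases, stood at 2.31, 2.60 and 1.92 FPKM for Control, 29.1, 27.0 and 26.9 for HN and 9.61, 11.8 and 8.97 for PEC mice. The groups were apart, and Serpine2 was called higher in HN (3.08, edgeR adjusted p = 1.46e-06) and lower in PEC than in HN (-1.23, edgeR adjusted p = 0.000153). The urokinase receptor gene Plaur was called higher in HN as well (1.76, edgeR adjusted p = 6.93e-05). Serpinf2, the plasmin inhibitor, went the other way, lower in HN (-2.24, edgeR adjusted p = 3.91e-05) and higher in PEC than in HN (1.18, edgeR adjusted p = 0.00196).

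ADAM and ADAMTS proteases, some of them targets of TIMP3, had 14 of 14 genes tested. In HN 10 were called higher and 0 lower (median 1.70, background 17.7% and 14.7%), in PEC 10 were called lower than in HN and 0 higher (median -1.09, background 15.3% and 13.4%), and against Control 6 were higher and 1 lower in PEC (median 0.23, background 18.9% and 17.4%). The largest in HN were Adamts12 (3.81), the procollagen peptidase Adamts2 (3.72), Adam8 (3.66) and Adam12 (3.49), each with edgeR adjusted p of at most 9.88e-06. Adamts4, an aggrecan-cutting enzyme, stood at 0.63, 0.68 and 0.33 FPKM for Control, 9.08, 4.34 and 5.04 for HN and 0.73, 0.82 and 0.76 for PEC mice. Its PEC mice lay next to Control, with the largest fall of the list between PEC and HN (-2.79, edgeR adjusted p = 0.000319), followed by Adamts12 (-1.97, edgeR adjusted p = 0.000237).

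Of 18 inducers and transcription factors known to act on these genes, 15 were called higher in HN and 0 lower (median 2.36, background 17.7% and 14.7%), 4 lower in PEC than in HN and 0 higher (median -0.61, background 15.3% and 13.4%, so that the 4 are near the share of all tested genes), and 12 higher in PEC than in Control and 0 lower (median 1.59, background 18.9% and 17.4%). The medians against Control were the same with Il6 at its bound. Il6, Osm and Fosl1 had at most 8 counts in each Control library and, like Mmp7, were bound to differ from Control once past the filter. Tnf, with 20, 20 and 4 counts in Control mice 2, 4 and 5, also passed it only with libraries of the other groups. Both the 15 and the 12 include these genes, and so these counts and the medians against Control cannot be set against the background. Il6, a cytokine, had 0 counts in every Control library and was at least 56.1-fold higher in HN against a floor of 3 counts over the group. The related cytokine Lif (4.90, edgeR adjusted p = 9.32e-06), the AP-1 subunit Fosl1 (8, 3 and 0 counts in Control and 131, 82 and 90 in HN mice) and the factor Runx1 (4.0, edgeR adjusted p = 1.26e-06) followed. The largest falls in PEC against HN among those called were Tgfb2 (-1.33, edgeR adjusted p = 0.000393) and the AP-1 subunit Junb (-1.30, edgeR adjusted p = 3.88e-05). Fosl1, in contrast, was not called there (0.32, edgeR adjusted p = 0.733).

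Matrix substrates made a list of 15 genes, all of them tested. In HN 10 were called higher and 2 lower (median 1.52, background 17.7% and 14.7%), in PEC 9 were called lower than in HN and 0 higher (median -0.77, background 15.3% and 13.4%), and against Control 9 were higher and 3 lower in PEC (median 0.69, background 18.9% and 17.4%). The fibrillar collagens Col1a1 (4.26) and Col3a1 (4.20), osteopontin, Spp1 (4.24), and fibronectin, Fn1 (4.05), had the largest fold changes in HN, each with edgeR adjusted p of at most 1.29e-06. Fn1 stood at 1.47, 1.62 and 2.01 FPKM for Control, 41.7, 39.6 and 42.0 for HN and 10.6, 14.6 and 11.2 for PEC mice, steps much like those of Mmp14. It fell between HN and PEC by 1.55 on the log2 scale (edgeR adjusted p = 0.000135), and versican, Vcan, by 1.59 (edgeR adjusted p = 0.00665). The 2 genes called lower in HN, a share near that of all tested genes, were the collagen IV chains of the mature glomerular membrane, Col4a3 (-0.81, edgeR adjusted p = 0.000196) and Col4a4 (-0.67, edgeR adjusted p = 0.000703), named after their values had been seen. On the FPKM scale the falls were smaller, from 25, 22.7 and 21.2 for Control to 17.8, 20 and 19.1 for HN mice in Col4a3, and from 20.3, 21 and 20.5 to 17.3, 18.5 and 20.7 in Col4a4, where the groups overlapped.

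**Figure D5:**
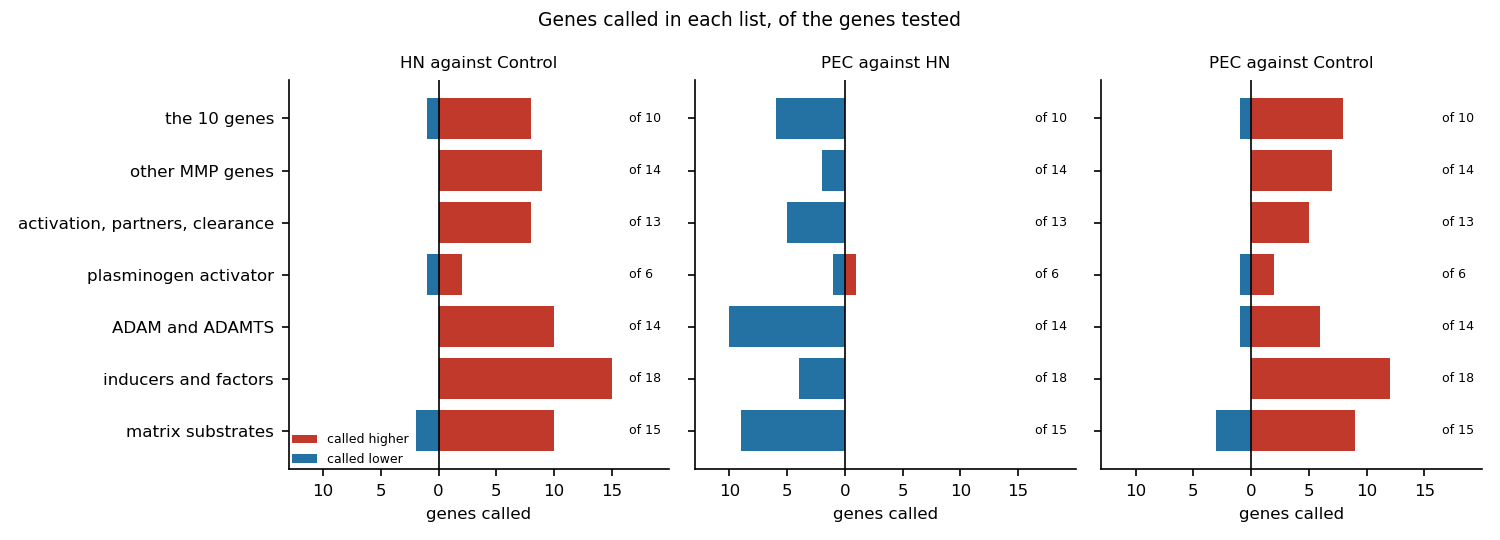
Number of genes called higher (right of 0) and lower (left of 0) in each gene list, with 1 panel for each of the 3 comparisons and the number tested at the right of each panel. In PEC against HN the calls lie to the left of 0 in all 7 lists, with 1 call to the right, in the plasminogen activator list.

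Genes with a pattern over the 9 libraries most like that of a member were found by the root mean square difference of log2 CPM, each gene centred on its own mean. For Mmp14 they were Kdelr3 (0.13), the collagen gene Col1a2 (0.18) and C1qtnf6 (0.18). For Timp3 they were Abcc2 (0.10), Aldh3a2 (0.11) and Slc25a15 (0.11), of which Abcc2 encodes an apical transporter of the proximal tubule. Timp1 was less closely matched, by Kcnh8 (0.38), the chemokine gene Cxcl2 (0.39) and the noncoding G930009F23Rik (0.42). The nearest to Mmp7 lay further off still, namely the cytokine gene Il1f6 (0.72), the chemokine gene Cxcl5 (0.73) and Arhgap36 (0.82).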

How the data were processed

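Kidney RNA-seq of 3 Control, 3 HN and 3 PEC mice was analysed from 1 table. The authors deposited whole-number read counts per gene, not normalized, and FPKM values that they computed from gene lengths and library totals. The submitters' processing notes name Bowtie 0.12.2 and builds mm8 and mm9, but the table's coordinates are GRCm38 and equal those of GENCODE M21 for 51991 of the 55144 genes found in both (for Mmp14 the end differs). The counting program and strand setting are not given in the sources used here. Groups came from the disease state and treatment in the labels, although the titles of all 9 samples, those of Control included, name HN mice.

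Counts were fitted with edgeR 4.0.16 in R 4.3.3 (filterByExpr, TMM, glmQLFit and glmQLFTest, 1 fit over the 9 libraries), checked on simulated counts. Sums and ratios were compared with exact two-sided permutation tests over mice (10 distinct regroupings). Alternatives were median-of-ratios factors, library totals, DESeq2 1.42.0, limma 3.58.1 on log2(FPKM + 1) or log2(FPKM + 0.1) for genes averaging 0.5 FPKM or more, no filter, unadjusted p, a fold change of at least 2, only the groups compared, an offset for transcript length and GC content, TPM for the sums, and each mouse left out. The 10 genes and the 16 lists (6 of pathway genes, 10 of cell type markers) were chosen with earlier results of these data known. After the analysis 1 gene was taken out of the plasminogen activator list, for a reason unrelated to its values, and is not reported here, so the counts and medians of that list cover the other 7. Named from each pathway list were the 4 called genes with the largest fold change in HN against Control and the 2 in PEC against HN, and from each marker list the gene with the most counts over all libraries. Promoter sequences are from RefSeq (GRCm38.p6).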

Additional observations from a re-analysis of the deposited data

How the results depend on the processing

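Of 294 fold changes of the 10 genes under alternatives other than leaving out a mouse, 282 kept their call, 12 changed call in the same direction and 0 changed direction; Timp4 fell below the FPKM filter of limma. With a mouse left out, 169 of 180 kept their call, 10 changed it and 1 changed direction (Timp4 in PEC against Control without PEC mouse 3, -0.80, not called either way; -0.80 to 1.72 over the mice left out). The counts in HN against Control and in PEC against Control stayed at 8 higher and 1 lower with each mouse left out. With the other alternatives this held for HN, while in PEC against Control 8 higher became 7 with limma on log2(FPKM + 1), which lost Mmp9, and with the length and GC offset and at a fold change of at least 2, which lost Timp2. In PEC against HN 4 to 7 were called lower and 0 to 1 higher with a mouse left out, and 1 higher with DESeq2, at an unadjusted p (both Timp4) and with the length and GC offset (Timp3). The number called lower there, 6, became 8 with limma on log2(FPKM + 1), 7 on log2(FPKM + 0.1) and 5 at a fold change of at least 2, and was 6 with every other alternative that kept all mice. Over all tested genes, leaving out a mouse gave 3336 to 3591 higher and 2779 to 2989 lower for HN against Control, 2325 to 2712 and 2794 to 3191 for PEC against HN, and 3629 to 3832 and 3414 to 3698 for PEC against Control. Some other settings moved these counts further. In HN against Control 3777 higher became 7708 with library totals and 5906 with limma on log2(FPKM + 0.1), and 3154 lower became 1286 with library totals, 1024 and 1191 with limma at a pseudocount of 1 and 0.1, 1902 at a fold change of at least 2, and 4734 with the length and GC offset (beside 3080 higher). In PEC against HN 2875 higher became 1356 and 1683 with limma and 1771 at the higher fold change, and 3266 lower became 1823 at the higher fold change. In PEC against Control 4053 higher became 6415 and 3731 lower became 1960 with library totals, and the latter 1485 and 1919 with limma and 2089 at the higher fold change. The protease sum in HN was 38.2 times that of Control, 50.1 times in TPM and 26.0 times with TMM factors, and 36.2 to 40.0 times with a mouse left out; PEC stood at 0.391 (0.325 to 0.440) of HN and 14.9 (12.4 to 16.8) times Control. The TIMP sum in HN was 1.03 of Control (0.978 to 1.07 with a mouse left out), 1.36 in TPM and 0.701 with TMM factors. In PEC it was 0.826 of HN (0.782 to 0.859), 0.642 in TPM and 0.948 with TMM factors, and 0.852 of Control (0.807 to 0.886), or 0.664 with TMM factors. The ratio of Timp1 to Timp3 was 113 to 175 times that of Control in HN, 0.512 to 0.597 of HN in PEC and 61.7 to 95.3 times Control in PEC with a mouse left out, and the share of TIMPs differed by -25.0 to -24.5, 9.43 to 14 and -15.3 to -10.7 percentage points in HN against Control, in PEC against HN and in PEC against Control. The cause of these shifts was not tested. With 3 mice per group an exact test of 1 value cannot go below 0.10, and counts under about 100 in most libraries limit Timp4 and Control levels of Mmp7, Mmp3 and Mmp9. No paired analysis was possible, because the groups are separate mice, randomly assigned by the study's methods, and a replicate number shared between groups links no mice.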

Other observations

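Some genes around the metalloproteinases were abundant and not called. Plau, the urokinase gene, chosen after its values were seen, stood at 139, 203 and 200 FPKM in Control mice 2, 4 and 5, 181, 277 and 242 in HN mice 4, 8 and 12, and 252, 259 and 245 in PEC mice 1, 2 and 3. Control and HN overlapped, and Plau was not called by edgeR between HN and Control (-0.17, adjusted p = 0.471) or between PEC and HN (0.33, adjusted p = 0.162), although its inhibitor Serpine2 was. Bsg, an inducer of metalloproteinases on cell surfaces, lay between 180 and 208 FPKM in all 9 libraries, and with TMM scaling differed by -0.55 for HN against Control (edgeR adjusted p = 0.000295) and by 0.35 for PEC against HN (edgeR adjusted p = 0.00492), short of the fold change for a call. Itgav, also chosen after its values were seen, encodes an integrin chain that binds MMP2, and was uneven within PEC mice, at 12, 1.47 and 0.68 FPKM, against 5.59, 5.65 and 4.31 in Control and 16.7, 14 and 11.2 in HN mice. The 3 PEC mice spanned a wider range than either other group, and no call was made by edgeR (adjusted p = 0.240 for PEC against HN).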
